A study of Homo sapiens with 6 samples.

Results

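The DNAJ co-chaperones, the family of J-domain proteins also called HSP40 proteins, were examined in HT1080 cells, a human fibrosarcoma line, with and without stable overexpression of PGK1, the glycolytic enzyme phosphoglycerate kinase 1. The members were the rows of the deposited gene table whose symbol starts with DNAJ, a class letter (A, B or C) and a number. The values of the rows did not enter that rule. The family and the other gene lists below, however, were chosen with earlier results of these data known. The members came to 45 of 21619 entries, of which 44 were single protein-coding genes (4 of class A, 12 of class B and 28 of class C) and 1 was the readthrough entry DNAJC25-GNG10. PolyA RNA was sequenced from 3 libraries of cells labelled PGK1 OE (PGK1_OE below) and 3 libraries of cells labelled PGK1 WT (WT below), all from the same line and under a single batch label. The labels give neither the promoter that drives the introduced PGK1, nor the number of clones, nor what the WT cells carry in place of the introduced gene. The descriptions of the WT libraries read v511 with the replicate number, a code that the labels do not explain. Nothing in them says that the 3 libraries of a group came from cultures grown apart, so p-values here reflect library-to-library spread that may be only technical.

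J-domain proteins bring client proteins to HSP70 chaperones, and their J domain switches on the HSP70 ATPase so that the client is gripped. Nucleotide exchange factors then release ADP and the client. Class A proteins resemble bacterial DnaJ, with a glycine- and phenylalanine-rich stretch and a zinc-finger-like region. Class B proteins lack the zinc-finger-like region, and class C proteins share little beyond the J domain and mostly serve 1 compartment or 1 task. Most cells keep a few abundant cytosolic members for general folding, beside dedicated members in the endoplasmic reticulum (ER), mitochondria, nucleus and endocytic vesicles. In human cells DNAJB1 and, less strongly, DNAJA1 belong to the heat shock response, and DNAJB9, DNAJB11 and DNAJC3 to the unfolded protein response of the ER.

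The libraries held 35851668 to 40538274 counts in PGK1_OE and 34425162 to 37500947 counts in WT. Levels below are scaled CPM, counts scaled to a common library size after TMM adjustment, unless FPKM, which also divides by length, is named. PGK1 checked the labels, at 13339.6, 12221 and 12418 CPM in the PGK1_OE libraries, against 523, 527 and 519 CPM in the WT libraries (edgeR adjusted p = 9.65e-14, log2 fold change 4.60, SE 0.04). Mesenchymal markers were present in both groups: all 8 (VIM, FN1, CDH2, SPARC, COL4A1, COL5A1, CD44 and S100A4) had a mean FPKM of at least 1, and their summed FPKM was 2265 to 2276 in PGK1_OE and 1244 to 1457 in WT. Most of that sum was VIM, with a mean of 1723 FPKM in PGK1_OE and 943 FPKM in WT. By edgeR, VIM, FN1, SPARC, COL4A1 and CD44 were called higher in PGK1_OE, CDH2 and COL5A1 lower, and S100A4 was not called. Of 8 epithelial markers 4 (EPCAM, KRT5, KRT14 and GRHL2) were at 0 counts in every library, and the list summed to 0.557 to 1.07 FPKM in PGK1_OE and 1.12 to 1.51 FPKM in WT. Of the rest, CDH1 (0 counts in every PGK1_OE library, 17, 28 and 16 in WT) was called lower in PGK1_OE. So was ESRP1 (6, 0 and 0 counts in PGK1_OE, 94, 83 and 80 in WT), while CLDN4 was not called and CLDN7 was not tested. Of 5 blood markers PTPRC and CD14 were at 0 counts in every library, and CD68, a lysosomal protein gene, made up nearly all of a sum of 118 to 133 FPKM in PGK1_OE and 119 to 134 FPKM in WT. The 5 endothelial markers, none of them at 0 throughout, summed to 1.73 to 2.49 FPKM in PGK1_OE and 0.680 to 0.803 FPKM in WT, mostly PECAM1. The part of these markers in the values below was not tested. In bulk RNA, fewer cells expressing a gene and less of its RNA per cell cannot be told apart.

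The comparison asked which DNAJ mRNAs differed between PGK1_OE and WT cells. Of the 45 members, 40 passed the filter on low counts and were tested. An adjusted p under 0.05 from edgeR's quasi-likelihood test over all entries was called a change, and 30 of the 40 (75.0%) changed, against 71.2% of all 14322 entries tested. Of the members tested 11 (27.5%) rose, against 35.4% of all entries, and 19 (47.5%) fell, against 35.8% of all entries. A change of at least 2-fold was called for 5 that rose and 4 that fell, while 12.0% of all entries rose and 12.1% fell by that much (24.1% in either direction). The share of members called in either direction was thus close to that of all entries, and the family's median log2 fold change was -0.10, against -0.02 for all entries. The 3 PGK1_OE values and the 3 WT values did not overlap for 31 members tested (77.5%), against 76.4% of all entries. Of the 40 members tested, PGK1_OE lay wholly above WT in 12, against 37.9% of all entries tested. It lay wholly below WT in 19 of the 40 (47.5%), against 38.5% of all entries tested.

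Rises and falls were counted in each class, beside 35.4% rising, 35.8% falling and 71.2% changing among all entries tested. All 3 tested members of class A changed, 2 upward and 1 downward. In class B 3 of 10 rose, 3 fell and 4 were not called. In class C 6 of 26 tested single genes rose (23.1%), 15 fell (57.7%) and 5 were not called, with a median log2 fold change of -0.28, against -0.02 for all entries. The readthrough entry DNAJC25-GNG10, counted apart from class C, was not called (edgeR adjusted p = 0.452, log2 fold change -0.16, SE 0.17). Whether the classes differ from each other was not tested.

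**Figure D1:**
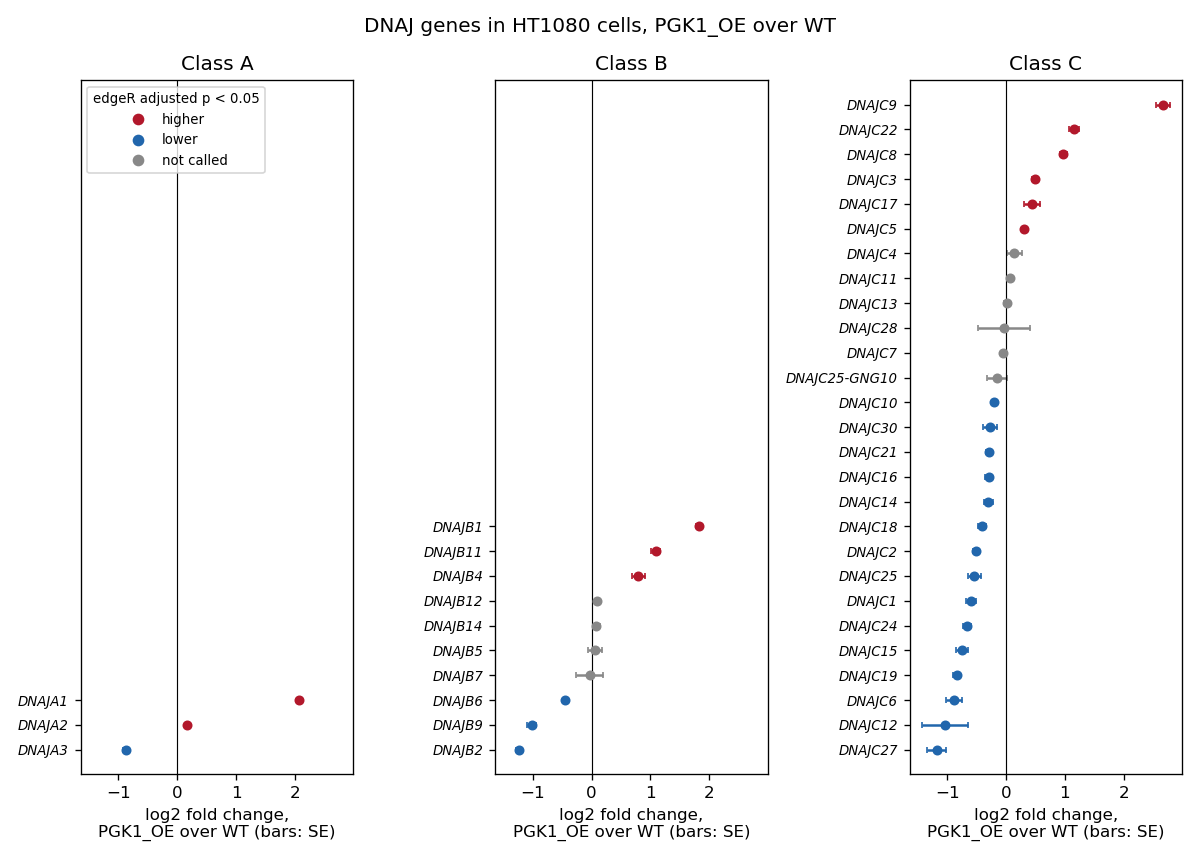
Log2 fold change of each of the 40 tested DNAJ entries, PGK1_OE over WT, by class, with bars of 1 standard error; red marks entries called higher in PGK1_OE, blue those called lower and grey those not called. DNAJC9 (2.67) and DNAJA1 (2.08) stand farthest to the right and DNAJB2 (-1.24) and DNAJC27 (-1.18) farthest to the left.

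Levels per length showed how the family's mRNA was made up. Summed over the 44 single genes, DNAJ FPKM came to 939, 948 and 956 in the PGK1_OE libraries, against 848, 845 and 846 in the WT libraries. Without DNAJA1 the sums were 757, 765 and 769 FPKM in PGK1_OE and 804, 799 and 800 FPKM in WT, so the order of the groups turned with that single gene. Class A held 25.3% to 25.7% of the summed FPKM in PGK1_OE and 14.03% to 14.6% in WT, class B held 32.0% to 32.1% in PGK1_OE and 37.0% to 38.2% in WT, and class C held 42.2% to 42.7% in PGK1_OE and 47.8% to 48.7% in WT. The class C sums themselves were 401, 404 and 404 FPKM in the PGK1_OE libraries, against 405, 411 and 404 FPKM in the WT libraries, and the class B sums were 300.3, 304 and 306 FPKM in PGK1_OE, against 324, 312 and 318 FPKM in WT. The highest member by mean FPKM was DNAJA1 in PGK1_OE, followed by DNAJB6, and DNAJB6 in WT, where DNAJC7, DNAJA3 and DNAJA1 came next in that order, with DNAJA3 at 46.1 and DNAJA1 at 45.1 FPKM. Mean FPKM was at least 50 for 6 members in PGK1_OE and for 2 in WT, and under 1 for 9 members in PGK1_OE and 8 in WT. CPM ranks genes otherwise, because it does not divide by length. DNAJC10 was the third by mean CPM over all libraries (251 CPM), while its mean FPKM was 12.2.

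**Figure D2:**
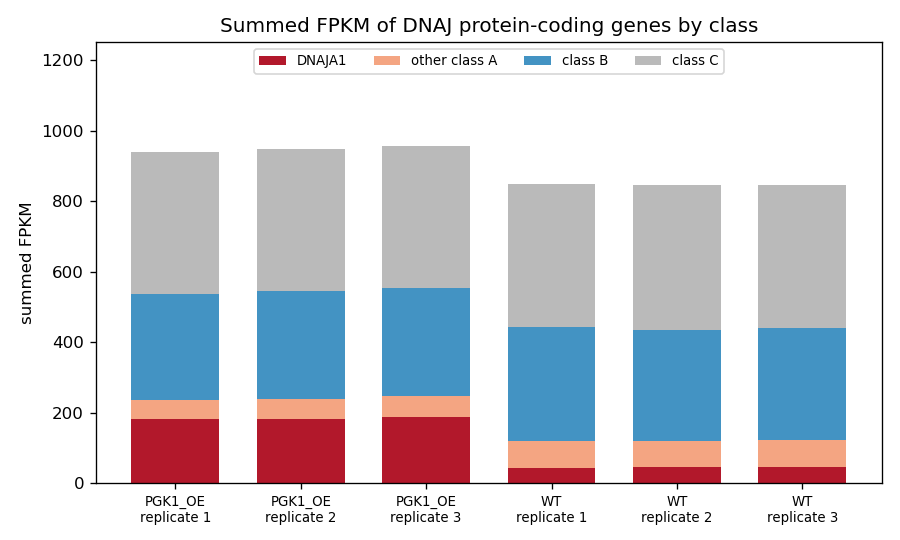
Summed FPKM of the 44 single DNAJ genes in each library, stacked by class with DNAJA1 drawn apart, PGK1_OE libraries on the left and WT libraries on the right. The columns reach 939 to 956 in PGK1_OE and 845 to 848 in WT, and DNAJA1 takes 19.4% to 19.6% of them in PGK1_OE and 5.20% to 5.43% in WT.

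The cytosolic and nuclear members with general folding roles went in both directions. Of 8 tested 4 rose, 2 fell and 2 were not called, with a median log2 fold change of 0.11. Over all entries tested 35.4% rose, 35.8% fell and 71.2% changed, and each group of a few genes below is to be read against these shares. DNAJA1 (ENSG00000086061, chr9:33025211-33039907, plus strand of GRCh38), a farnesylated class A protein that works with HSPA8, stood at 459, 464 and 478 CPM in the PGK1_OE libraries, against 108, 109.9 and 113 CPM in the WT libraries. Every PGK1_OE library was above every WT library, and the rise was 4.23-fold (edgeR adjusted p = 4.66e-12, log2 fold change 2.08, SE 0.04). GENCODE 29 lists 6 pseudogenes named after DNAJA1, which are not analysed here, and reads shared with them would make its level uncertain. The related DNAJA2 had 105, 106 and 110.4 CPM in the PGK1_OE libraries, against 96.5, 92.1 and 97.2 CPM in the WT libraries. That difference was small but larger than the spread within groups (edgeR adjusted p = 0.00419, log2 fold change 0.17, SE 0.04). In FPKM, DNAJA1 was 5.61 to 5.68 times DNAJA2 in the PGK1_OE libraries and 1.46 to 1.55 times in the WT libraries.

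DNAJB1 (ENSG00000132002, chr19:14514770-14529770, minus strand of GRCh38), the classic heat-inducible HSP40 that acts with HSP70 and HSP110 in taking protein aggregates apart, had 136, 140.4 and 148 CPM in the PGK1_OE libraries, against 41.1, 38.7 and 39.6 CPM in the WT libraries. The groups were far apart, with a 3.56-fold rise (edgeR adjusted p = 7.27e-11, log2 fold change 1.83, SE 0.05). DNAJB1 shares 5.75% of its annotated exon bases with TECR on the opposite strand, itself at 59.9 CPM in PGK1_OE and 30.2 CPM in WT, and since the strand setting of the count is not given its value may hold reads of that gene. DNAJB4, a close relative of DNAJB1, averaged 19.8 ± 1.76 CPM in PGK1_OE and 11.4 ± 1.30 CPM in WT (SD, n = 3 each) and rose (edgeR adjusted p = 4.83e-05, log2 fold change 0.79, SE 0.11).

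In contrast, DNAJB2 (ENSG00000135924, chr2:219279267-219286900, plus strand of GRCh38), which carries ubiquitin-binding motifs and passes clients on to the proteasome, had 26.9, 25.7 and 27.4 CPM in the PGK1_OE libraries, against 60.6, 66.1 and 61.9 CPM in the WT libraries. All PGK1_OE libraries lay below all WT libraries (edgeR adjusted p = 4.30e-09, log2 fold change -1.24, SE 0.06), and the fall was 2.36-fold. DNAJB6, a suppressor of polyglutamine aggregation and the most abundant member in WT, fell as well, with 262, 269 and 262 CPM in the PGK1_OE libraries, against 370.0, 356 and 361 CPM in the WT libraries. The groups did not overlap (edgeR adjusted p = 2.80e-07, log2 fold change -0.46, SE 0.04). On the log2(FPKM + 1) scale the fall of DNAJB6 was -0.62 (limma adjusted p = 2.02e-06). DNAJC7, a tetratricopeptide-repeat protein that links HSP70 and HSP90, had 155, 141 and 147 CPM in the PGK1_OE libraries, against 157, 146 and 156 CPM in the WT libraries, with overlapping groups and no call (edgeR adjusted p = 0.373, log2 fold change -0.05, SE 0.05). On the opposite strand it shares 4.28% of its exon bases with CNP (76.6 CPM in PGK1_OE, 12.2 CPM in WT). It also shares 5.16% with NKIRAS2 there (39.7 CPM in PGK1_OE, 54.9 CPM in WT). Whether reads of these genes bear on its value was not tested. DNAJB5 was not called either (edgeR adjusted p = 0.691, log2 fold change 0.06, SE 0.12).

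**Figure D3:**
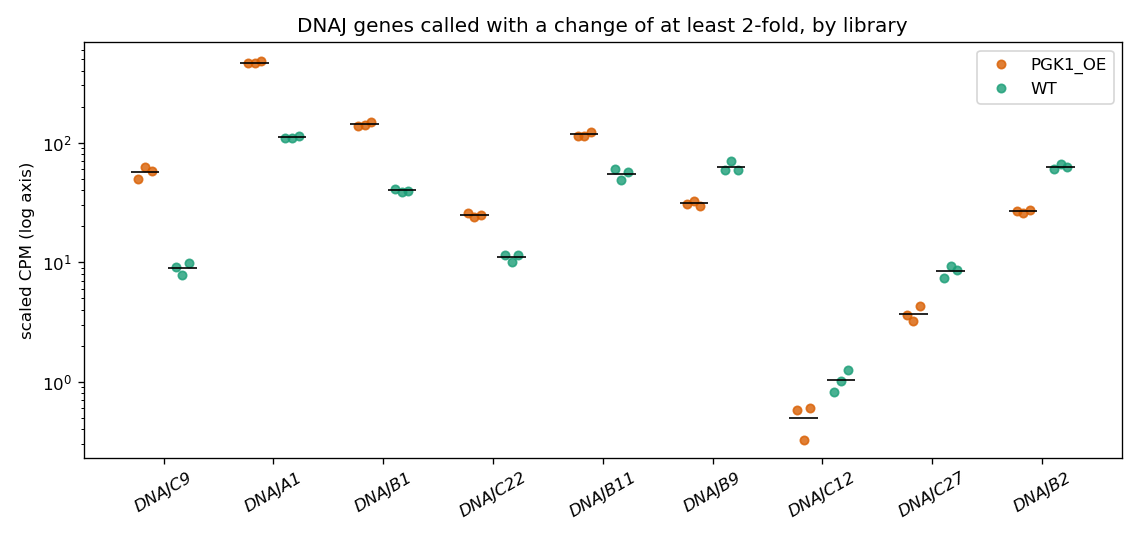
Scaled CPM in each library, on a log axis, of the 9 DNAJ genes called with a change of at least 2-fold, PGK1_OE left of WT for each gene; short lines mark the group means. From DNAJC9 to DNAJB11 every PGK1_OE point lies above every WT point, and from DNAJB9 to DNAJB2 every one lies below.

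Promoters of members were read to see whether those that rose share sequence features. RefSeq promoter windows (GRCh38.p14, 250 bases before to 50 after each annotated start) were matched by symbol for 41 of the 45 members. Of these, 10 had risen, 17 had fallen, 10 were not called and 4 were not tested. A full heat shock element, searched on both strands as GAA, TTC and GAA with 2 free bases between the triplets, stood in the windows of 2 members, DNAJA1 and DNAJB6, and in those of 0.608% of all 27305 genes with a window. The element begins at base 4 in DNAJA1, counting the start base as 1, and 131 bases before it in DNAJB6. Of these 2 genes DNAJA1 rose and DNAJB6 fell. None of the 3 windows of DNAJB1 holds these letters in full. Near matches were not searched, and a DNAJB1 window holds gaaggttctggag, which departs from the element only in the last triplet. The E box CACGTG, a palindrome, stood in the windows of 4 members (DNAJB9, DNAJC8, DNAJC12 and DNAJC16), of which 1 rose and 3 fell, and in those of 8.77% of all genes. DNAJB9 and DNAJC8 each hold it at 2 places. The ER stress element, searched as CCAAT and CCACG with 9 free bases between, stood in none of the members' windows and in those of 0.0916% of all genes. The element TGATGNAAT, also searched on both strands and bound by C/EBP and ATF factors, stood in 1 member's windows (DNAJA4, not tested) and in those of 1.22% of all genes. The E2F letters TTTCCCGC or TTTGGCGC stood in those of 2 members, DNAJC5G, which was not tested, and DNAJC6, which fell, and in those of 2.75% of all genes. Other forms of the E2F letters were not searched. The window of DNAJC9, which rose, holds gggcgcgaaaaag, a run close to GCGCCAAA, which is TTTGGCGC read on the other strand. No printed window has matches of different motifs that overlap. A match is a run of letters, not a bound site. The windows below are those of the 2 members with a heat shock element and the 2 with paired E boxes, given 5′ to 3′ on the gene's strand with the matches in capitals.
DNAJA1 promoter, chr9:33025023-33025322, plus strand: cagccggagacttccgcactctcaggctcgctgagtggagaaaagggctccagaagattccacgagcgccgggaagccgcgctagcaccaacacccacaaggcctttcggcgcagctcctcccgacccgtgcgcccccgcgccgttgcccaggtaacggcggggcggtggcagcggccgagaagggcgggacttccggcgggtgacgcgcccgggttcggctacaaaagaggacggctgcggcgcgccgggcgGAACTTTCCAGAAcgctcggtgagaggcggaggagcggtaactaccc
DNAJB6 promoter, chr7:157336754-157337053, plus strand: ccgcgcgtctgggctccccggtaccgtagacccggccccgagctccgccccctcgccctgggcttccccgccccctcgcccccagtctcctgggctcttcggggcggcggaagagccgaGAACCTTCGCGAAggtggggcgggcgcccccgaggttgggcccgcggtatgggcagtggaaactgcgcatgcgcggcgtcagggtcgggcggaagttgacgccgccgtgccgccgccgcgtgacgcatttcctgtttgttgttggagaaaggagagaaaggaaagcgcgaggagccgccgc
DNAJB9 promoter, chr7:108569624-108569923, plus strand: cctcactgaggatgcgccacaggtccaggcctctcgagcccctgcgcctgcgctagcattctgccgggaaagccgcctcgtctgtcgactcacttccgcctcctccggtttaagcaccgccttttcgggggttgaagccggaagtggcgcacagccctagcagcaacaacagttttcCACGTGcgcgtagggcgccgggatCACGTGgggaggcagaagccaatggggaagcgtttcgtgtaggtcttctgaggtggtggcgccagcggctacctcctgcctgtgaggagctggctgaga
DNAJC8 promoter, chr1:28232980-28233279, minus strand: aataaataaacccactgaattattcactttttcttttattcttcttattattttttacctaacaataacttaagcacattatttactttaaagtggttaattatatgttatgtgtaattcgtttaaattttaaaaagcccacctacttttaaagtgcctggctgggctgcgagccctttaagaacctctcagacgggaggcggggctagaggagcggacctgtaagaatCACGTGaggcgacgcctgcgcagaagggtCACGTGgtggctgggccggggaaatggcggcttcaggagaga

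The ER members split. All 5 tested members of the ER lumen changed, 2 upward and 3 downward, with a median log2 fold change of -0.21. DNAJB11 (ENSG00000090520, chr3:186567403-186585800, plus strand of GRCh38), a lumenal co-chaperone of the ER HSP70 HSPA5, had 114, 113 and 123 CPM in the PGK1_OE libraries, against 59.9, 48.1 and 56.8 CPM in the WT libraries. It rose 2.13-fold with no overlap (edgeR adjusted p = 8.53e-07, log2 fold change 1.09, SE 0.08). DNAJC3, which inhibits the kinases PERK and PKR, averaged 81.1 ± 1.34 CPM in PGK1_OE and 57.6 ± 1.85 CPM in WT (SD, n = 3 each) and rose (edgeR adjusted p = 1.58e-06, log2 fold change 0.49, SE 0.05).

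DNAJB9 (ENSG00000128590, chr7:108569568-108574850, plus strand of GRCh38), which recruits HSPA5 to repress the stress sensor IRE1 and whose promoter with paired E boxes is printed above, went the other way, with 30.6, 32.5 and 29.7 CPM in the PGK1_OE libraries, against 58.9, 70.4 and 59.2 CPM in the WT libraries. The fall was 2.03-fold, and WT replicate 2 was the highest of all libraries (edgeR adjusted p = 2.01e-07, log2 fold change -1.02, SE 0.08). In FPKM, DNAJB11 was 5.10 to 6.07 times DNAJB9 in PGK1_OE and 1.00 to 1.49 times in WT. DNAJC1, an ER membrane protein with a lumenal J domain, fell (edgeR adjusted p = 6.04e-05, log2 fold change -0.59, SE 0.09), as did DNAJC10, a reductase of disulfide bonds in misfolded proteins (edgeR adjusted p = 1.80e-04, log2 fold change -0.21, SE 0.04).

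Of 4 members anchored in the ER membrane and facing the cytosol 2 fell and 2 were not called. DNAJC18 had 33.97, 30.5 and 30.9 CPM in the PGK1_OE libraries, against 41.1, 43.5 and 42.2 CPM in the WT libraries, without overlap (edgeR adjusted p = 8.87e-05, log2 fold change -0.41, SE 0.06). DNAJC14 had 73.3, 62.6 and 74.03 CPM in the PGK1_OE libraries, against 77.2, 89.8 and 91.4 CPM in the WT libraries, a smaller gap (edgeR adjusted p = 0.0106, log2 fold change -0.30, SE 0.08) that was not called without WT replicate 2 (log2 fold change -0.26, edgeR adjusted p = 0.0615). DNAJC14 shares 23.2% of its exon bases with AC023055.1 on the same strand, at 4.98 CPM in PGK1_OE and 8.27 CPM in WT. On the opposite strand it shares 21.9% with ORMDL2, at 30 CPM in PGK1_OE and 26.2 CPM in WT, and 12.9% with TMEM198B. How far reads of these entries bear on the DNAJC14 call was not tested. DNAJB12 and DNAJB14, paralogs that help degrade misfolded membrane proteins, were at 0.10 (SE 0.05, edgeR adjusted p = 0.0857) and 0.08 (SE 0.06, edgeR adjusted p = 0.254). For DNAJB14 the sign turned on the log2(FPKM + 1) scale, where limma gave -0.13.

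Mitochondrial members fell where they were called. Of 7 tested 4 fell (57.1%, against 35.8% of all entries), DNAJC30 at the threshold, while 0 rose and 3 were not called, with a median log2 fold change of -0.27, and their summed FPKM was 75.7, 79.1 and 79.2 in the PGK1_OE libraries, against 118, 121 and 117 in the WT libraries. DNAJA3, the class A partner of mitochondrial HSP70, had 67.8, 69.7 and 72.6 CPM in the PGK1_OE libraries, against 125, 129 and 132 CPM in the WT libraries. Every PGK1_OE library was below every WT library (edgeR adjusted p = 8.96e-09, log2 fold change -0.88, SE 0.04). DNAJC19, a subunit of the motor that pulls proteins through the inner membrane, had 27.2, 28.4 and 28.4 CPM in the PGK1_OE libraries, against 52.5, 49.9 and 47.7 CPM in the WT libraries, again without overlap (edgeR adjusted p = 1.21e-07, log2 fold change -0.84, SE 0.06). GENCODE 29 lists 9 pseudogenes named after DNAJC19, which are not analysed here.

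DNAJC15, a relative of DNAJC19 at the inner membrane, averaged 8.98 ± 0.693 CPM in PGK1_OE and 15.1 ± 1.02 CPM in WT (SD, n = 3 each) and fell (edgeR adjusted p = 5.94e-05, log2 fold change -0.75, SE 0.11). DNAJC30, tied to assembly and upkeep of the respiratory chain, had 9.15, 8.12 and 8.03 CPM in the PGK1_OE libraries, against 9.95, 10.1 and 10.5 CPM in the WT libraries. Its groups did not overlap, but its call was at the threshold (edgeR adjusted p = 0.0498, log2 fold change -0.27, SE 0.11). It was lost with DESeq2 (adjusted p = 0.0693) and, with edgeR, under RLE factors (0.0512), without the low-count filter (0.0691) and in each fit that left out a library other than PGK1_OE replicate 1 (0.0853 to 0.131). DNAJC30 shares 14.4% of its exon bases with BUD23 on the opposite strand, at 47.4 CPM in PGK1_OE and 75.9 CPM in WT. DNAJC11, a protein of the inner-membrane organising system, was not called (edgeR adjusted p = 0.196, log2 fold change 0.07, SE 0.05), nor were DNAJC4 (edgeR adjusted p = 0.356, log2 fold change 0.14, SE 0.13) and the low DNAJC28 (13 to 31 counts in PGK1_OE and 17 to 27 in WT). DNAJC11 shares 27.9% of its exon bases with THAP3 on the opposite strand, at 7.64 CPM in PGK1_OE and 9.39 CPM in WT. Whether reads of THAP3 bear on the DNAJC11 value was not tested.

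All 5 members with tasks in chromatin, splicing or the ribosome changed, against 71.2% of all entries, 3 upward and 2 downward, with a median log2 fold change of 0.44. DNAJC9 (ENSG00000213551, chr10:73183362-73248862, minus strand of GRCh38), a chaperone of histones H3 and H4 that acts in DNA replication, had 49.2, 62.5 and 57.6 CPM in the PGK1_OE libraries, against 9.05, 7.72 and 9.81 CPM in the WT libraries. This 6.36-fold rise was the largest of the family, with every PGK1_OE library at least 5 times the highest WT library (edgeR adjusted p = 1.48e-08, log2 fold change 2.67, SE 0.11). DNAJC9 shares 24.0% of its exon bases with FAM149B1 on the opposite strand, at 60.6 CPM in PGK1_OE and 44.3 CPM in WT, where DNAJC9 itself averaged 8.86 CPM. Reads of FAM149B1 may be among the counts of DNAJC9, and how far they bear on its level and fold was not tested. DNAJC8, a spliceosome-associated protein whose promoter is among those printed, had 130.0, 143 and 133 CPM in the PGK1_OE libraries, against 67.99, 65.1 and 73.7 CPM in the WT libraries. It rose 1.96-fold without overlap (edgeR adjusted p = 2.15e-08, log2 fold change 0.97, SE 0.06).

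DNAJC17, also found with the spliceosome, had the low levels of 10.3, 12.2 and 9.76 CPM in the PGK1_OE libraries, against 8.63, 7.33 and 7.81 CPM in the WT libraries. It was called by edgeR (edgeR adjusted p = 0.00883, log2 fold change 0.44, SE 0.13) but by none of the 3 limma fits on FPKM (adjusted p = 0.0526, 0.0564 and 0.0956), and it shares 20.4% of its exon bases with GCHFR on the opposite strand, at 0.192 CPM in PGK1_OE and 0.182 CPM in WT. Smaller overlaps on that strand are with C15orf62 (3.73%, at 1.99 CPM in PGK1_OE and 1.27 CPM in WT) and ZFYVE19 (1.95%, at 17.1 CPM in PGK1_OE and 6.66 CPM in WT). How far their reads bear on the DNAJC17 call was not tested. The ribosome-bound DNAJC2, which acts on nascent chains with HSPA14, had 64.8, 69.7 and 69.8 CPM in the PGK1_OE libraries, against 97.8, 101 and 92.5 CPM in the WT libraries and fell (edgeR adjusted p = 2.42e-06, log2 fold change -0.51, SE 0.05). DNAJC21, a maturation factor of the large ribosomal subunit, fell too (edgeR adjusted p = 9.32e-05, log2 fold change -0.29, SE 0.04).

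Vesicle and endosome members gave 1 rise and 2 falls among 4 tested. DNAJC5, the cysteine string protein of vesicle release, had 156, 150.3 and 155 CPM in the PGK1_OE libraries, against 125, 122 and 126 CPM in the WT libraries and rose (edgeR adjusted p = 1.68e-05, log2 fold change 0.31, SE 0.04). DNAJC27 (ENSG00000115137, chr2:24943636-24972094, minus strand of GRCh38), a Rab-like GTPase with a J domain, was low in both groups, with 3.60, 3.23 and 4.26 CPM in the PGK1_OE libraries, against 7.31, 9.20 and 8.61 CPM in the WT libraries. The groups did not overlap and the fall was 2.27-fold (edgeR adjusted p = 4.16e-05, log2 fold change -1.18, SE 0.16). DNAJC6, the neuronal auxilin that uncoats clathrin vesicles, averaged 11.3 ± 2.34 CPM in PGK1_OE and 20.97 ± 0.494 CPM in WT (SD, n = 3 each) and fell (edgeR adjusted p = 1.58e-04, log2 fold change -0.89, SE 0.14). DNAJC13, an endosomal sorting protein, was even between the groups in this test, at 192 ± 3.81 CPM in PGK1_OE and 191 ± 7.40 CPM in WT (SD, n = 3 each) (edgeR adjusted p = 0.844, log2 fold change 0.01, SE 0.04).

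Of the remaining 5 members 1 rose and 4 fell. DNAJC22 (ENSG00000178401, chr12:49346917-49357546, plus strand of GRCh38), whose fly counterpart acts in endocytosis, had 25.5, 23.6 and 24.5 CPM in the PGK1_OE libraries, against 11.5, 10.02 and 11.5 CPM in the WT libraries. It rose 2.23-fold, with all PGK1_OE libraries above all WT libraries (edgeR adjusted p = 2.77e-07, log2 fold change 1.16, SE 0.09). DNAJC24, which is needed to make the diphthamide residue of elongation factor EEF2, had 22.2, 25.3 and 25.4 CPM in the PGK1_OE libraries, against 38.1, 40.3 and 37.4 CPM in the WT libraries and fell (edgeR adjusted p = 4.61e-06, log2 fold change -0.67, SE 0.07). DNAJC16 (edgeR adjusted p = 0.00114, log2 fold change -0.29, SE 0.06) and DNAJC25 (edgeR adjusted p = 9.22e-04, log2 fold change -0.54, SE 0.11) fell, and DNAJC25 shares 13.8% of its exon bases with DNAJC25-GNG10 on the same strand.

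DNAJC12 (ENSG00000108176, chr10:67796665-67838166, minus strand of GRCh38), a co-chaperone of the aromatic amino acid hydroxylases, had 23, 13 and 21 counts in the PGK1_OE libraries, against 31, 36 and 46 counts in the WT libraries. The groups did not overlap, and the gene was called lower (edgeR adjusted p = 0.0312, log2 fold change -1.04, SE 0.39). The call was lost without PGK1_OE replicate 1 or 2 (edgeR adjusted p = 0.0508 and 0.110) and without WT replicate 2 or 3 (0.0683 and 0.133).

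The 5 members that did not pass the filter were at or near 0. DNAJB8 had 0 counts in all 6 libraries, which allows up to 0.0750 to 0.0851 CPM in PGK1_OE and 0.0792 to 0.0849 CPM in WT (3 counts in a library, counting error only). DNAJC5B had 4 counts in WT replicate 3 and 0 elsewhere, and DNAJC5G had 7 counts in PGK1_OE replicate 2 and 0 elsewhere. DNAJA4 had 0, 0 and 4 counts in PGK1_OE and 9, 0 and 2 counts in WT. DNAJB13, a sperm axoneme protein, had 3, 11 and 7 counts in PGK1_OE and 7, 11 and 7 counts in WT. DNAJB7, a low-level member counted as tissue-restricted, passed the filter and was not called (edgeR adjusted p = 0.893, log2 fold change -0.04, SE 0.23), and 24.2% of its exon bases are shared with XPNPEP3 on the opposite strand. DNAJB3 was not analysed here.

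The HSP70 chaperones that J-domain proteins serve were counted next to them. Of 16 HSP70 family genes 15 were tested, 10 rose (66.7%, against 35.4% of all entries) and 3 fell (20.0%, against 35.8%), with a median log2 fold change of 1.36, against -0.02 for all entries. Among these calls the smaller ones of HSPA4L (log2 fold change 0.22) and HYOU1 (-0.11) were lost under alternatives: HSPA4L in the limma fits on FPKM (adjusted p = 0.158 to 0.181) and without PGK1_OE replicate 3 (edgeR adjusted p = 0.0721), and HYOU1 in each fit that left out a library other than PGK1_OE replicate 3 (edgeR adjusted p = 0.0544 to 0.111). The median is the value of HSPA14. Another entry that GENCODE 29 names HSPA14, not in the list, shares 17.4% of its exon bases. That entry was at -0.29, with 28.9 CPM in PGK1_OE and 35.3 CPM in WT. Of the rises, HSPA1L (12, 4 and 9 counts in WT) and HSPA12B (0, 5 and 4 counts in WT) started from few counts. HSPA8, the constitutive cytosolic HSP70, had 3531, 3826 and 3730.5 CPM in the PGK1_OE libraries, against 305, 279 and 328 CPM in the WT libraries (edgeR adjusted p = 6.89e-11, log2 fold change 3.60, SE 0.06). GENCODE 29 lists 17 pseudogenes named after it, which are not analysed here. The stress-inducible HSPA1A had 38.9, 45.5 and 42.99 CPM in the PGK1_OE libraries, against 3.30, 3.85 and 4.04 CPM in the WT libraries (edgeR adjusted p = 1.15e-10, log2 fold change 3.51, SE 0.10). HSPA1B had 61.9, 74.1 and 67.2 CPM in the PGK1_OE libraries, against 5.33, 6.25 and 6.17 CPM in the WT libraries (edgeR adjusted p = 5.39e-11, log2 fold change 3.52, SE 0.09). HSPA1A and HSPA1B lay higher in every PGK1_OE library, but these neighbours are nearly identical and the split of reads between them is uncertain. HSPA9, the mitochondrial HSP70 served by DNAJA3 and DNAJC19, fell, with 515, 535 and 559.8 CPM in the PGK1_OE libraries, against 1267, 1243 and 1262 CPM in the WT libraries (edgeR adjusted p = 1.84e-10, log2 fold change -1.23, SE 0.04). HSPA5, the ER HSP70, was slightly lower (edgeR adjusted p = 0.00405, log2 fold change -0.14, SE 0.04).

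Of 10 nucleotide exchange factors 3 rose, 3 fell and 4 were not called, while 35.4% of all entries rose and 35.8% fell. Of the rises, BAG1 was at 0.26 with edgeR and turned to -0.035 to -0.037 in the limma fits on FPKM (adjusted p = 0.883 to 0.896). The cytosolic BAG3 rose, with 143, 141 and 139.5 CPM in the PGK1_OE libraries, against 47.5, 42.4 and 44.1 CPM in the WT libraries (edgeR adjusted p = 1.61e-10, log2 fold change 1.66, SE 0.05). The 3 that fell serve organelles: the mitochondrial GRPEL1 (edgeR adjusted p = 7.34e-06, log2 fold change -0.38, SE 0.04) and GRPEL2 (edgeR adjusted p = 3.57e-07, log2 fold change -0.77, SE 0.06), and the ER factor SIL1 (edgeR adjusted p = 1.60e-04, log2 fold change -0.56, SE 0.09). They were named after their values were seen. Of 6 J-domain or J-related genes under other symbols 4 fell (66.7%, against 35.8% of all entries). The fall of HSCB was lost in each fit that left out a library other than WT replicate 1 (edgeR adjusted p = 0.054 to 0.151). PAM16, the J-like partner of DNAJC19 in the import motor, had 6.27, 5.80 and 4.48 CPM in the PGK1_OE libraries, against 15.6, 18.4 and 16.1 CPM in the WT libraries and fell (edgeR adjusted p = 8.88e-07, log2 fold change -1.60, SE 0.14). PAM16 shares 21.9% of its exon bases with the readthrough CORO7-PAM16. In the heat shock factor list HSBP1 rose (edgeR adjusted p = 1.47e-08, log2 fold change 0.79, SE 0.04), HSF1 (edgeR adjusted p = 5.57e-04, log2 fold change -0.25, SE 0.05) and HSF2 (edgeR adjusted p = 0.0122, log2 fold change -0.24, SE 0.07) fell, and HSF4 was not called (edgeR adjusted p = 0.194, log2 fold change 0.24, SE 0.16). The call of HSF2 was lost without PGK1_OE replicate 1 (edgeR adjusted p = 0.0676) and without WT replicate 2 (0.0556). All 9 genes of HSP90 and its adaptors changed, against 71.2% of all entries, 8 upward and 1 downward (TRAP1, the mitochondrial HSP90, at -0.18), with a median of 0.44. CDC37 (0.12) was no longer called in the limma fits on FPKM (adjusted p = 0.211 to 0.23). Of these the HSP70-HSP90 adaptor STIP1 had 372, 391 and 378 CPM in the PGK1_OE libraries, against 187, 179.5 and 183 CPM in the WT libraries (edgeR adjusted p = 4.46e-10, log2 fold change 1.06, SE 0.04). HSP90AA1, the stress-responsive cytosolic HSP90, had 2859, 3111 and 3034 CPM in the PGK1_OE libraries, against 709.6, 604 and 682 CPM in the WT libraries (edgeR adjusted p = 2.41e-09, log2 fold change 2.17, SE 0.06). Both were higher in every PGK1_OE library than in any WT library.

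**Figure D4:**
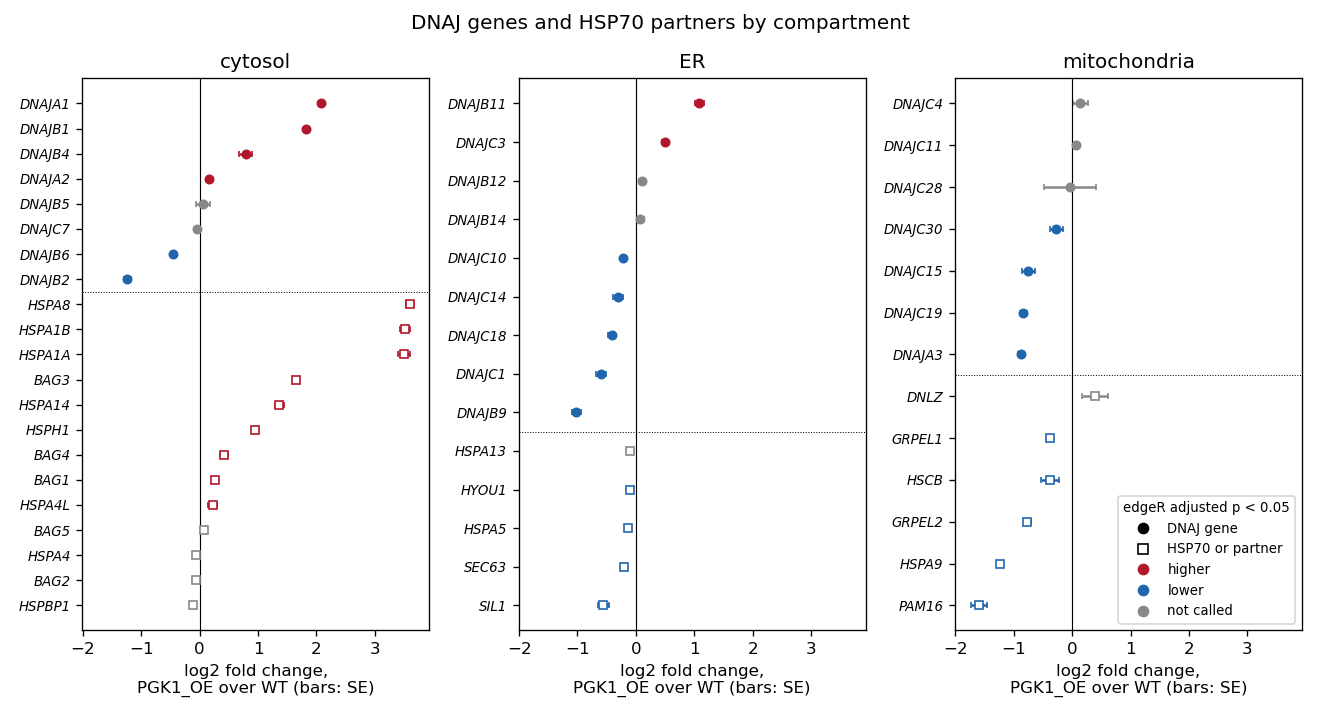
Log2 fold change, PGK1_OE over WT, of tested DNAJ genes (filled circles) and of HSP70 genes and their partners (open squares) in the cytosol, ER and mitochondria, with bars of 1 standard error. Squares in the cytosol reach 3.60 (HSPA8), while the called genes drawn in the mitochondrial panel lie between -0.27 (DNAJC30) and -1.60 (PAM16).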

How the data were processed

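Gene counts and FPKM values are as deposited by the authors. The submitters' processing notes name fastp, HISAT and hg38; which tool counted reads or made FPKM, with which annotation and whether by strand, is not given in the sources used here. Per the labels' protocols, mRNA was captured on beads and a commercial kit was used for the libraries.

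Counts were tested with edgeR 4.0.16 (R 4.3.3): TMM factors, filterByExpr by group, robust quasi-likelihood F-tests, two-sided, with Benjamini-Hochberg adjustment over all 14322 entries tested. SE is the absolute log2 fold change over the square root of F. The fit was tested on simulated data in which few genes changed, which does not check it where most entries are called, as here. Alternatives were RLE factors and library totals, other filters, limma 3.58.1 on log2(FPKM + 1) and log2(FPKM + 0.1), DESeq2 1.42.0, a replicate block, other thresholds and leaving out each library. Coordinates and exon overlaps come from GENCODE 29 (GRCh38) by Ensembl ID. Values per library are given for called members changed at least 2-fold, the 3 highest members of each class by mean FPKM, the 2 called members of each role with the smallest adjusted p, and members whose call was lost under an alternative; of partner genes, for called ones changed at least 2-fold, at most 4 a list. Members and gene lists were chosen with earlier results of these data known.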

Additional observations from a re-analysis of the deposited data

How the results depend on the processing

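Of the 30 members called, 26 stayed called in every alternative other than the one that also asked for a 2-fold change. The 4 others, DNAJC12, DNAJC14, DNAJC17 and DNAJC30, were lost at least once, and no called member changed direction. With the 2-fold condition, by its construction, 1713 entries were higher and 1733 lower over the whole table, 5 and 4 among the members, 1 and 0 in class A, and 2 and 2 in class C. When each library was left out in turn, all entries higher came to 4810 to 5022, all entries lower to 4800 to 4955, and DNAJ members lower to 16 to 18.

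Directions turned for members that were not called and for BAG1 and BAG6; the cause was not tested. DNAJB14 was at -0.13, -0.14 and -0.13 in the 3 limma fits on FPKM, DNAJC13 at -0.037, -0.038 and -0.037, and BAG1, called higher by edgeR, at -0.035, -0.037 and -0.035. With library totals DNAJC13 was at -0.036 and BAG6 at -0.0043. Over the fits without 1 library, DNAJB5 ranged over -0.033 to 0.13, DNAJB7 over -0.12 to 0.053, DNAJC13 over -0.012 to 0.041 and DNAJC28 over -0.24 to 0.27.

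No shared effect of the replicate number was seen: same-numbered libraries' deviations from group means correlated at -0.013, -0.013 and 0.095. With 3 libraries per group, these values cannot tell whether same-numbered libraries were handled in pairs. A block for the replicate number gave 4973 for all entries higher, 4970 for all entries lower, 11 members higher and 18 members lower. DNAJC12 (edgeR adjusted p = 0.0601) and DNAJC30 (0.0779) were lost, and DNAJC25-GNG10 was gained (0.0482). Without PGK1_OE replicate 2 DNAJC25-GNG10 was also called (log2 fold change -0.33, edgeR adjusted p = 0.0308). Depth limits DNAJC12, DNAJC28 and the untested members, which had few counts in every library.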

Other observations

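The readthrough entry DNAJC25-GNG10 had a mean of 40.9 CPM in PGK1_OE and 45.7 CPM in WT, although 75.3% of its exon bases belong to GNG10 as well, which had 47.5 CPM in PGK1_OE and 48.7 CPM in WT. DNAJC25 alone had 16.4 CPM in PGK1_OE and 23.8 CPM in WT. How reads were divided among these 3 entries is not given in the sources used here.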
